A study of Mus musculus with 15 samples.

Results

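Liver RNA of mice fed a high-fat diet with green coffee was compared with liver RNA of mice on a normal diet. The comparison used 6 of the 15 arrays of the series, the 3 arrays labelled as high-fat diet with unroasted green coffee (HFGC group) and the 3 labelled as normal diet (ND group). All mice were male C57BL/6 (C57BL/6J in the study's methods), were 7 weeks old at the start and ate their diet freely for 9 weeks. The ND group received the purified diet D12450B with 10% of its energy from fat. The HFGC group received the diet D12492 with 60% of its energy from fat, to which 2% freeze-dried coffee from unroasted, caffeinated beans was added. Fat content, the energy sources that fat replaced and coffee therefore changed together. Their shares in a difference cannot be told apart in this comparison alone. The comparison addresses which differences from the normal diet were present in mice that also received coffee. The other 9 arrays came from mice on the same high-fat diet without coffee (HF group), with roasted caffeinated coffee (HFCC group) or with decaffeinated coffee (HFDC group), 3 in each. Each array measured 1 mouse of a larger group, chosen at random.

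The liver makes much of the body's cholesterol, through a chain of enzymes that starts from acetyl-CoA and runs through mevalonate, farnesyl pyrophosphate, squalene and lanosterol. When sterol in the membrane of the endoplasmic reticulum (ER) is low, the transcription factor SREBP2 is released and switches on the genes of this chain together, binding sterol regulatory elements next to CCAAT boxes that bind the factor NF-Y. The ER also folds the secreted proteins of the liver, with chaperones that are induced when folding is overloaded. Fat and foreign compounds are sensed by nuclear receptors, among them PPARa, PPARg, CAR and PXR, which set the levels of enzymes for fatty acid oxidation, fat storage and drug metabolism.

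Levels are given as log2 intensity, and a step of 1 on this scale is a 2-fold change. The median probe set of an array had a linear intensity of at least 48.5. A gene is called higher or lower in what follows where limma's moderated test gave a Benjamini-Hochberg adjusted p under 0.05 over all 18193 genes, with the arrays of the ND, HFCC, HFDC and HFGC groups in 1 model. Adjusted p-values are from this test, and differences carry their standard error (SE) from the same model. The levels of the 3 arrays of a group are given in the order of replicates 1, 2 and 3. The labels do not name a shared cage, litter or day. Each array was a separate mouse of its group.

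In the HFGC group 138 genes were called higher and 60 lower than in the ND group, or 0.759% and 0.330% of all genes tested. An unadjusted p under 0.05 was reached by 2790 genes, or 15.3% of those tested. Of the 198 called genes, 104 differed by at least 1.5-fold and 33 by at least 2-fold. The median difference over all genes was 0.01, with 51.9% of genes above 0. Every called gene had HFGC arrays that did not overlap the ND arrays, as did 17.1% of all genes. On the first principal component of the 12 arrays in the model, which held 26.9% of the variance, the ND arrays lay between -22.2 and -13.2 and the HFGC arrays between 5.0 and 8.6. The number of calls rested on single arrays. It fell from 198 to 62 without ND replicate 1, 77 without ND replicate 3, 42 without HFGC replicate 1 and 27 without HFGC replicate 2, and to 104, 100, 92 and 108 without HFCC replicates 1, 2 and 3 and HFDC replicate 2, which only enter the estimate of the spread. The smaller counts were drawn mainly from the same genes, since 26 of the 27 and 40 of the 42 were also called with all arrays. In 25 genes, 19 higher and 6 lower, the call held without each of the 6 compared arrays. Among these were the sterol genes Msmo1, Fdps, Idi1, Cyp51, Mvd, Insig1 and Stard4, the cytochromes Cyp2c54, Cyp2c37 and Cyp2c50, and Ces1g, Enho, Atf4, Cd9, Pnpla7 and Cdkl4. Of the 55 called genes that the naming rule selected, these 16 kept their call without each of the 6 arrays and the other 39 lost it without at least 1, with adjusted p up to 0.16. In whole liver RNA, fewer cells of a type and less RNA per cell cannot be told apart.

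Genes of cholesterol synthesis stood at the top of the comparison. Of 17 measured enzymes of the chain, 12 were called higher in the HFGC group and none lower, against 0.759% of all genes called higher. The remaining 5 also had all HFGC arrays above all ND arrays, as did 9.68% of all genes. The median difference of the 17 genes was 1.70, against 0.01 for all genes, and the called members were 1.57-fold to 13.8-fold higher. Promoters are shown first, because the known shared control of these genes acts there. Whether that control had a part in the rise was not tested. RefSeq windows from 250 bases before to 50 bases after the start of transcription (GRCm38.p6) were found for 9 of the 12 called enzymes. Motifs were counted on both strands. All 9 held a CCAAT box, against 41.1% of 27025 genes with a window. A sterol regulatory element in the spelling TCACNCCAC stood in 1 of the 9, Hmgcs1, against 1.44% of all genes. The E-box CACGTG was found in 1 of the 9, in Sc5d, against 8.09% of all genes. The core GCGTG of xenobiotic response elements stood in 7 of the 9 (35.2% of all genes), the antioxidant response core TGACNNNGC in 1 (3781 of the 27025) and the nuclear receptor core GGTCANAGG in 0 (2.02%). For the 5 called enzymes with a window that had the largest differences, the 250 bases before the start are printed below in order of that difference, from 5′ to 3′ along each gene's strand. Capitals mark CCAAT or its reverse complement ATTGG, and in Hmgcs1 also the sterol element, which lies 137 bases before the start.
Msmo1, chr8:64733579-64733828, minus strand: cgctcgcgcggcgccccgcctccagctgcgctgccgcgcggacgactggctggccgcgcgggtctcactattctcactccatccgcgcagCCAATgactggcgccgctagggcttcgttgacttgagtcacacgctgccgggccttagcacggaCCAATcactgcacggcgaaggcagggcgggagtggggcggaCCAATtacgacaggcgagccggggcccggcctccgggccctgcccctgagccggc
Idi1, chr13:8885356-8885605, plus strand: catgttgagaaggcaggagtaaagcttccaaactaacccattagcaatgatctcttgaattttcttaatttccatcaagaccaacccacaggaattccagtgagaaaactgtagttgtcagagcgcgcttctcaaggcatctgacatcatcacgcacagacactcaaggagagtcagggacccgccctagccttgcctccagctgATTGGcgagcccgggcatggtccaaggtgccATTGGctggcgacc
Cyp51, chr5:4104698-4104947, minus strand: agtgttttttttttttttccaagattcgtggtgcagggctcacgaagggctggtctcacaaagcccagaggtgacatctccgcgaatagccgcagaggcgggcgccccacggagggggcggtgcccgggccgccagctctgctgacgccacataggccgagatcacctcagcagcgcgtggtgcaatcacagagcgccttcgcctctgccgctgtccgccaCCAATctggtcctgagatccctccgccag
Mvd, chr8:122443423-122443672, minus strand: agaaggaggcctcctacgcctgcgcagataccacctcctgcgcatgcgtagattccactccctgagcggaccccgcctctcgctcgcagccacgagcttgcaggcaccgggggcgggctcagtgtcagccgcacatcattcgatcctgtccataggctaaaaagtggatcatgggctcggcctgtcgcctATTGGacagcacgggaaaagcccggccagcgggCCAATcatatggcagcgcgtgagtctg
Hmgcs1, chr13:119690101-119690350, plus strand: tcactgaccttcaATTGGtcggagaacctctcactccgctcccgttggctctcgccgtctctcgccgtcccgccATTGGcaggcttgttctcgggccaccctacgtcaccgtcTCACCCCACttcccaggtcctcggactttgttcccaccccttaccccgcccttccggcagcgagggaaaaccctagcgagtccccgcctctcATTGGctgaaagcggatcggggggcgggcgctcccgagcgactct
Hmgcs1 has CCAAT boxes that begin 237, 176 and 45 bases before its start, Idi1 45 and 14, Msmo1 160, 96 and 55, Cyp51 29, and Mvd 60 and 27. A match of letters describes the sequence and does not show that a factor was bound. The same box was present in all windows found for the called ER chaperones (4 of 4) and CAR and PXR targets (3 of 3), described further on, so it was not particular to the sterol genes.

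The early, mevalonate part of the chain is run by Hmgcs1, Mvk, Pmvk, Mvd and Idi1. Hmgcs1, which joins acetyl-CoA units into HMG-CoA, had levels of 10.40, 9.72 and 9.96 in the ND livers and 11.88, 12.45 and 12.90 in the HFGC livers. The difference was 2.38 ± 0.43 (SE, n = 3 against 3; adjusted p = 0.030), and the HFGC livers were all above the ND livers. Mvd, the decarboxylase that yields isopentenyl pyrophosphate, rose from 5.86, 5.62 and 6.10 to 8.44, 9.05 and 9.18, a difference of 3.03 ± 0.38 (adjusted p = 0.0047). Idi1, which isomerises that product, rose from 7.69, 7.96 and 8.34 to 10.95, 11.39 and 12.03, by 3.47 ± 0.49 (adjusted p = 0.0087). Hmgcs1 was 5.21-fold and Mvd 8.18-fold higher in the HFGC group, and Idi1 had the largest difference of the 3. Mevalonate kinase, Mvk, rose by 0.91 ± 0.17 (adjusted p = 0.036). The next kinase, Pmvk, had a difference of 1.05 ± 0.25 that was not called (adjusted p = 0.068).

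The middle part builds squalene. Fdps, which makes farnesyl pyrophosphate, had levels of 7.05, 6.82 and 6.74 in the ND livers against 9.80, 10.52 and 10.97 in the HFGC livers. Its difference of 3.56 ± 0.44 was called (adjusted p = 0.0042), but a second, dimmer probe set of the gene gave -0.10. Fdft1, squalene synthase, rose by 1.70 ± 0.36 (adjusted p = 0.046), with 1 of its 4 probe sets at 0.01. Sqle, the monooxygenase that opens the route to sterols, had levels of 6.42, 6.01 and 6.44 in the ND livers and 9.45, 10.04 and 10.70 in the HFGC livers, and rose by 3.78 ± 0.69 (adjusted p = 0.031). In these enzymes the HFGC livers lay well clear of the ND livers, but the spread among the HFGC livers was wide, and the SE of Sqle was the largest of the called enzymes named here. The calls for Sqle, Fdft1 and Hmgcs1 were each lost when any 1 of the 6 compared arrays was left out, with adjusted p up to 0.11, 0.15 and 0.11.

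The late part turns squalene epoxide into cholesterol. Lss, which closes the ring to lanosterol, rose from 7.16, 7.25 and 6.94 to 8.31, 8.78 and 9.28, by 1.68 ± 0.28 (adjusted p = 0.021). Cyp51, the lanosterol demethylase, rose from 6.77, 6.31 and 6.05 to 9.01, 9.57 and 9.83, by 3.09 ± 0.41 (adjusted p = 0.0057). Msmo1, the oxidase that starts the removal of methyl groups at a later step, had the largest difference of all called genes named here. It stood at 8.06, 8.03 and 7.93 in the ND livers and at 11.04, 11.82 and 12.54 in the HFGC livers, a difference of 3.79 ± 0.49 or 13.8-fold (adjusted p = 0.0048). Nsdhl, which acts with Msmo1, rose by 1.73 ± 0.29 (adjusted p = 0.022), and the desaturase Sc5d by 0.65 ± 0.12 (adjusted p = 0.037). Dhcr7, Hsd17b7 and Tm7sf2, also of this late part, had differences of 1.21 ± 0.30, 0.93 ± 0.26 and 0.67 ± 0.25 that were not called (adjusted p = 0.075, 0.11 and 0.22).

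**Figure D1:**
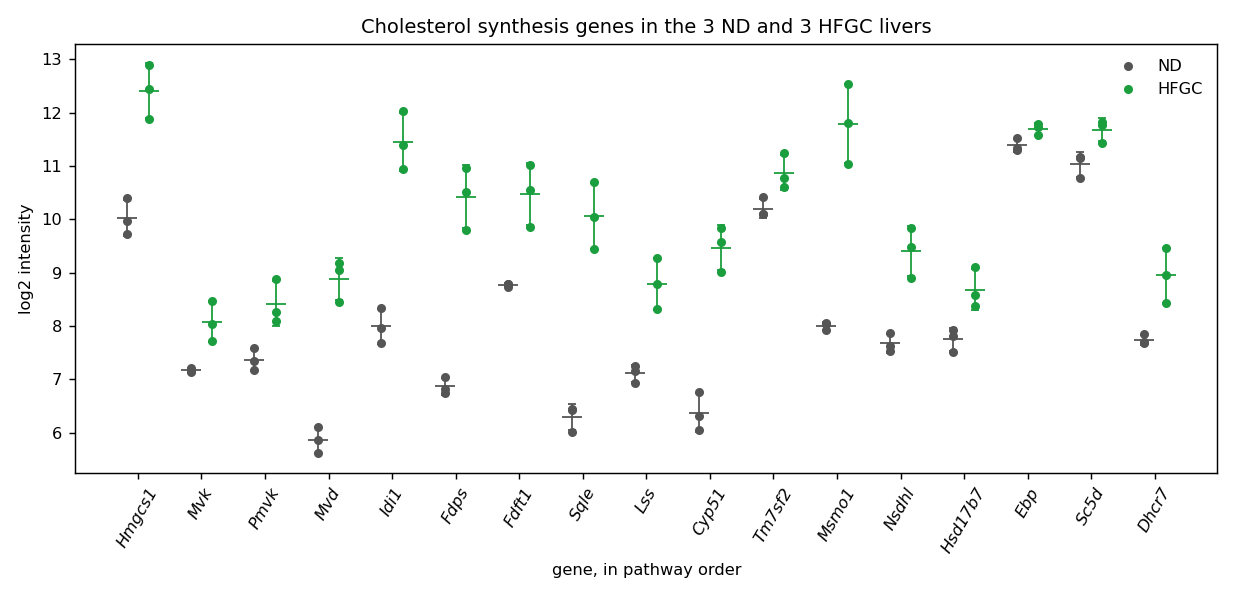
Log2 intensity of the 17 measured enzymes of cholesterol synthesis, in pathway order, in the 3 ND and the 3 HFGC livers, with single livers as points, means as horizontal marks and SD as bars. In each of the 17 genes all HFGC livers lie above all ND livers, and the gap is widest for Msmo1 and Sqle.

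The HFGC livers differed among themselves in this chain. The mean level of the 17 enzymes was 8.16, 8.07 and 8.06 in the ND livers and 9.65, 10.10 and 10.53 in the HFGC livers. HFGC replicate 3 was the highest of its group in 17 of 17 enzymes, and HFGC replicate 1 the lowest in 16. The count of called enzymes was 12 with all arrays, 5 without ND replicate 1, ND replicate 3 or HFGC replicate 2, 7 without HFGC replicate 3 and at least 9 without any other array. It was 7 when 32 was added to the intensities before log2. The median difference without HFGC replicate 3 was 1.43.

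The group of sterol sensing, uptake and export held few calls. Of 12 measured members 2 were called higher and none lower, beside 0.759% of all genes called higher, with a median of 0.01. Insig1, the ER protein that holds back SREBP processing and is itself an SREBP target, rose from 9.06, 9.08 and 9.01 to 10.98, 11.53 and 11.63, by 2.33 ± 0.28 (adjusted p = 0.0039). Stard4, a carrier of cholesterol between membranes, rose from 8.68, 9.22 and 8.87 to 9.92, 10.16 and 10.13, by 1.15 ± 0.16 (adjusted p = 0.0063). Both had groups that did not overlap, and both calls held without each of the compared arrays. Acsl3, an ER and lipid droplet enzyme that activates fatty acids, rose from 6.84, 6.76 and 6.84 to 7.93, 8.49 and 8.56, by 1.51 ± 0.22 (adjusted p = 0.0098). It was the only member called higher of 10 genes of fatty acid elongation, desaturation and activation.

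Set beside the other diets, which share the same ND arrays, the median difference from ND over the 17 enzymes was 1.70 with green coffee, 2.06 with roasted caffeinated coffee, 0.46 with decaffeinated coffee and 1.39 without coffee. In the HFDC group the mean level was 9.72, 8.53 and 8.36, so that replicate 1 lay near the other high-fat livers and the other 2 nearer the ND livers. The direct limma tests between high-fat groups called none of the 17 enzymes. HFGC minus HFDC lay between 0.23 and 2.66, with 16 enzymes at an unadjusted p under 0.05, as were 7.04% of all genes, and adjusted p from 0.17 to 0.77. HFGC minus HFCC lay between -0.565 and -0.03, with no unadjusted p under 0.05, against 2.65% of all genes, and adjusted p = 1. HFGC minus HF, in the model of all 15 arrays, lay between -0.11 and 1.05, with 4 enzymes at an unadjusted p under 0.05, as were 20.6% of all genes, and adjusted p from 0.085 to 0.98. A p above the threshold does not show that the groups were alike.

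Chaperones and quality control genes of the ER were another group with several calls. Of 19 measured members 5 were called higher and none lower, against 0.759% of all genes called higher, and all 19 had differences above 0. The median difference was 0.57, against 0.01 for all genes. Sdf2l1, a partner of the chaperone BiP, had levels of 8.45, 8.64 and 9.54 in the ND livers and 10.76, 10.59 and 9.73 in the HFGC livers. It rose by 1.48 ± 0.31 (adjusted p = 0.046). Creld2, an ER protein with disulfide isomerase activity, rose from 10.54, 10.62 and 10.78 to 12.40, 12.33 and 11.18, by 1.33 ± 0.24 (adjusted p = 0.030). Dnajb9, a co-chaperone of BiP, rose by 0.95 ± 0.18 (adjusted p = 0.037), Manf, a secreted ER stress protein, by 0.81 ± 0.16 (adjusted p = 0.038), and Sel1l, the adaptor of the ER-associated degradation complex, by 0.64 ± 0.12 (adjusted p = 0.037). Syvn1, the ubiquitin ligase that works with Sel1l, and the disulfide isomerase Pdia6 had differences of 1.00 ± 0.24 and 0.70 ± 0.16 that were not called (adjusted p = 0.068 and 0.065).

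HFGC replicate 3 stood apart in these genes, in the opposite direction to the sterol genes. It was the lowest of its group in 19 of 19 chaperone genes, with a mean level of 11.36 against 11.88 in each of the other 2 HFGC livers. The ND livers stood at 10.88, 11.05 and 11.26. The same array had the lowest 3′ minus 5′ value of the 6, the log2 difference between 3′ and 5′ control probe sets of Gapdh and Actb and a measure of RNA integrity, at 0.697 against 0.888 and 0.887 in the other HFGC livers and 0.833, 0.845 and 0.948 in the ND livers. The part of RNA integrity in these levels was tested only as a term in the model, where 8 chaperones were called higher. Without HFGC replicate 3 the count was 12. It was 0 without ND replicate 1, HFGC replicate 1 or HFGC replicate 2, 1 without ND replicate 2 or any 1 of the HFCC arrays, and 2 without HFDC replicate 2. It was also 0 with the compared groups alone and with 32 added to the intensities before log2, 2 with limma's trend and robust options and 3 with a replicate block.

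The median difference of the 19 chaperones from ND was 0.57 with green coffee, 0.55 with roasted coffee, 0.45 with decaffeinated coffee and 0.25 without coffee, each against the same ND arrays. HFGC minus HF lay between -0.14 and 0.92, with a median of 0.445 and 18 of 19 above 0. An unadjusted p under 0.05 in limma's test was reached by 13 of the 19, beside 20.6% of all genes. The 3′ minus 5′ values of the HF arrays were all above those of the HFGC arrays. In the same test 1 gene, Pdia3, was called higher at 0.76 (adjusted p = 0.033), beside 0.797% of all genes. Pdia3, a disulfide isomerase, was chosen after its values were seen. Its call was lost without HF replicate 2, HF replicate 3, HFGC replicate 1 or HFGC replicate 2 (adjusted p up to 0.16), and with the 3′ minus 5′ term its difference was 0.50 (adjusted p = 0.62). None of the chaperones was called between HFGC and HFDC or between HFGC and HFCC in limma's test. An unadjusted p under 0.05 was reached by 4 and 0 of them, beside 7.04% and 2.65% of all genes.

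**Figure D2:**
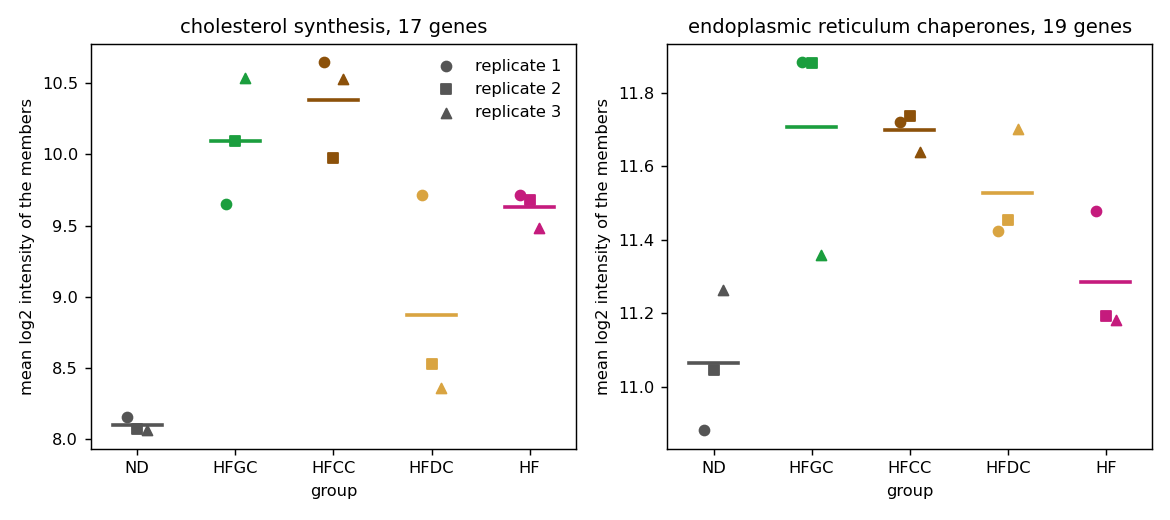
Mean log2 intensity of 17 cholesterol synthesis enzymes (left) and 19 ER chaperone genes (right) in each of the 15 livers, by group, with symbols for the replicate number and lines for the group mean. HFGC replicate 3 is the highest HFGC liver on the left (10.53) and the lowest on the right (11.36).

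Of 16 genes listed for ATF4, the transcription factor of the integrated stress response, and its targets, 1 was called higher, beside 0.759% of all genes. This was Atf4 itself, which rose from 9.95, 10.15 and 10.09 to 10.89, 10.83 and 10.68, by 0.74 ± 0.09 (adjusted p = 0.0047). Its HFGC levels were close together and all above the ND levels. Ddit3, which encodes the stress factor CHOP, had a difference of 1.13 ± 0.26 that was not called (adjusted p = 0.062). The median of the ATF4 list was 0.20. Among 11 heat shock proteins, most of which serve the cytosol, none was called at an adjusted p under 0.05, and the median was -0.24. An unadjusted p under 0.05 was reached by 3 of the 11, beside 15.3% of all genes.

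Enzymes of drug and xenobiotic metabolism formed the next group. Of 17 CAR and PXR targets 4 were called higher and none lower, against 0.759% of all genes called higher, with a median of 0.36. That median was 0.44 in the HFCC, 0.23 in the HFDC and 0.26 in the coffee-free HF group, each against the same ND arrays. In limma's test of HFGC against HF none of the 17 was called. An unadjusted p under 0.05 was reached there by 3 of them, beside 20.6% of all genes. Cyp2c54 rose from 11.36, 11.98 and 11.62 to 12.88, 12.93 and 12.87, by 1.24 ± 0.13 (adjusted p = 0.0017). Cyp2c37 rose from 11.51, 11.80 and 11.63 to 12.55, 12.53 and 12.40, by 0.84 ± 0.08 (adjusted p = 0.0013), and Cyp2c50 by 0.67 ± 0.10 (adjusted p = 0.0089). These cytochromes oxidise drugs and fatty acids, and their HFGC levels were nearly equal in the 3 mice. They are close relatives, so that a probe may bind more than 1 of them, which was not tested. Aldh1a1, the retinal dehydrogenase, rose by 0.55 ± 0.10 (adjusted p = 0.025).

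Cyp2b9, a cytochrome that is low in male liver, showed the widest gap of this list without a call. Its levels were 4.82, 4.90 and 5.04 in the ND livers, below the median probe set, and 9.12, 7.21 and 8.07 in the HFGC livers. The difference was 3.22 ± 0.85 (adjusted p = 0.091), and the HFGC livers did not overlap the ND livers but differed widely from each other. Cyp1a2, the enzyme that removes methyl groups from caffeine, rose from 11.33, 11.50 and 11.59 to 11.94, 12.06 and 11.88, by 0.48 ± 0.08 or 1.40-fold (adjusted p = 0.022). It was the only call among 12 measured genes of the AhR pathway and caffeine metabolism, whose median was -0.03, beside 0.759% of all genes called higher. The difference of Cyp1a2 from ND was 0.58 in the HF group, which received no coffee, and HFGC minus HF was -0.09 (adjusted p = 0.63).

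Further single members of conjugation and transport lists rose, to be read beside the 0.759% of all genes called higher. Sult1b1, a sulfotransferase, was 1.09 ± 0.19 higher (adjusted p = 0.025) and was the only call among 19 genes of glucuronidation and sulfation. Gsta3 was the only one called of 21 glutathione S-transferases, at 0.63 ± 0.10 (adjusted p = 0.018), and Ces1g the only one of 9 carboxylesterases. Members of these families have close relatives too, and shared probes were not tested. Ces1g, which hydrolyses lipid esters, rose from 7.71, 8.37 and 7.84 to 9.98, 9.89 and 10.04, by 2.00 ± 0.16 or 3.99-fold (adjusted p = 0.00047). Among 21 genes of bile acid synthesis and transport 2 were called higher, against the same 0.759%. Abcc3, which exports conjugates to the blood, rose by 1.06 ± 0.18 (adjusted p = 0.023) and Akr1d1, the steroid reductase that shapes the bile acid ring, by 0.77 ± 0.16 (adjusted p = 0.046). Aox3, an aldehyde oxidase, rose by 0.71 ± 0.14 (adjusted p = 0.043). In the coffee-free HF group the difference from ND was 0.88 for Sult1b1, 0.38 for Gsta3 and 2.14 for Ces1g. For Abcc3, Akr1d1 and Aox3 it was 1.40, 0.62 and 0.64. None of these genes was called in limma's test of HFGC against HF. Ugdh, which supplies the sugar for glucuronidation, had a difference of 0.63 ± 0.14 just outside the threshold (adjusted p = 0.0502).

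**Figure D3:**
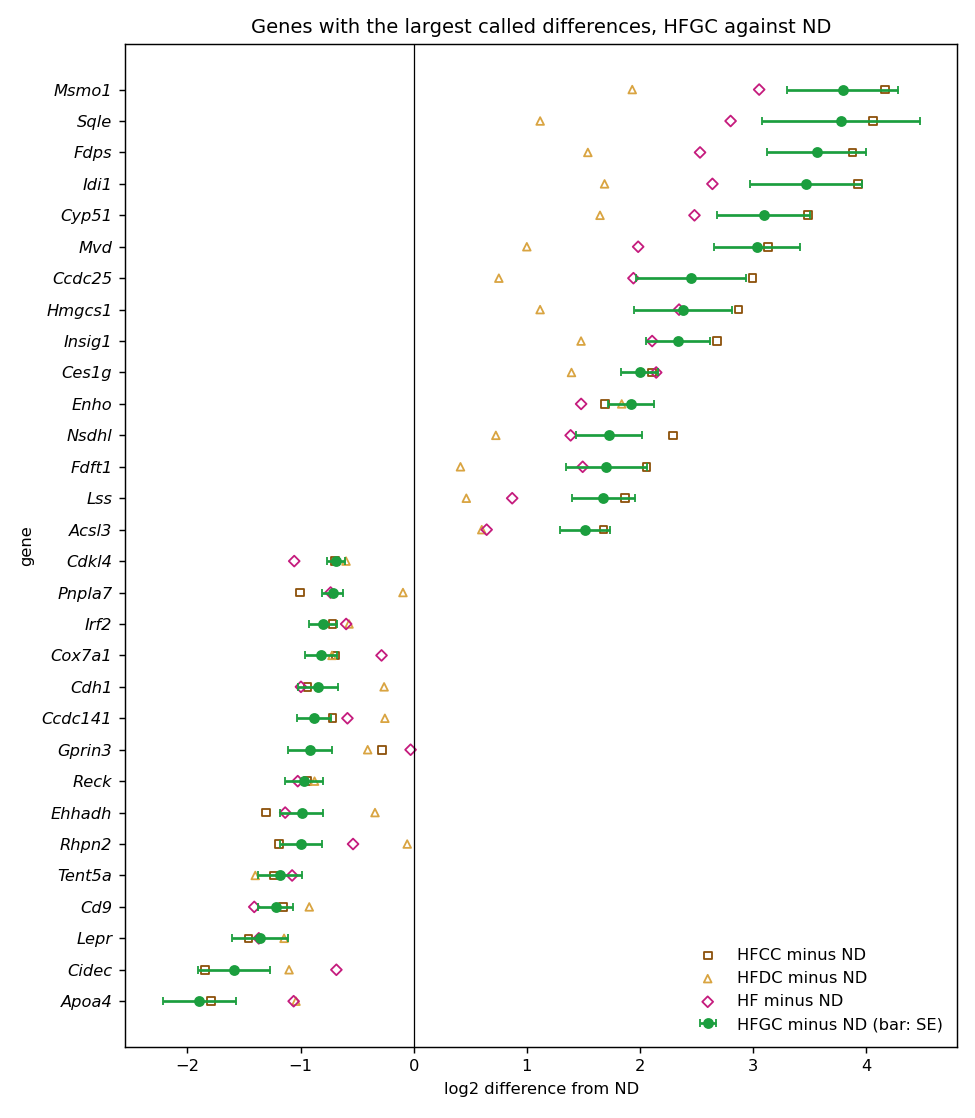
Log2 difference from ND of the 15 called genes with the largest rise and the 15 with the largest fall in the HFGC group (filled points, bars are SE), with open symbols for the HFCC, HFDC and HF differences of the same genes, which rest on the same 3 ND arrays. The values run from 3.79 for Msmo1 to -1.90 for Apoa4.

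Outside the lists, Enho and Ccdc25 were among the largest rises. Enho, which encodes the secreted peptide adropin, rose from 6.98, 6.70 and 6.92 to 8.70, 8.84 and 8.82, by 1.92 ± 0.21 (adjusted p = 0.0017), with 1 of its 4 probe sets at 0.02. Ccdc25 rose from 4.09, 4.46 and 4.02, all below the median probe set, to 5.92, 6.58 and 7.43, by 2.45 ± 0.48 (adjusted p = 0.039). Its call was lost without any 1 of the 6 compared arrays, with adjusted p up to 0.12. Ifrd1, the only called member of 15 immediate early genes, rose by 0.64 ± 0.14 (adjusted p = 0.046), beside 0.759% of all genes called higher. The call of Ifrd1 was lost in the model of all 15 arrays, with the RNA integrity term and without 5 of the 6 compared arrays.

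Among the genes that fell, several act on lipids. Apoa4, an apolipoprotein of triglyceride-rich particles, stood at 12.56, 12.52 and 13.05 in the ND livers and at 10.81, 10.56 and 11.07 in the HFGC livers. It fell by 1.90 on the log2 scale (SE 0.32, adjusted p = 0.023), the largest fall of a called gene named here. Apoc2, the activator of lipoprotein lipase, fell by 0.46 (SE 0.09, adjusted p = 0.041). These were the 2 calls among 18 apolipoproteins and lipoprotein genes, whose median was 0.01, beside 0.330% of all genes called lower. Pnpla7, a lysophospholipase, fell from 11.25, 11.25 and 11.09 to 10.44, 10.53 and 10.46, by 0.72 (SE 0.09, adjusted p = 0.0047). Ehhadh, a bifunctional enzyme of peroxisomal beta-oxidation, fell from 13.89, 13.54 and 13.37 to 12.81, 12.80 and 12.22, by 0.99 (SE 0.19, adjusted p = 0.035). Ehhadh was the only call among 18 PPARa targets, whose median was -0.19, beside the same 0.330%. Elovl2, which elongates polyunsaturated fatty acids, fell from 12.86, 12.77 and 12.80 to 12.29, 12.26 and 12.06, by 0.61 (SE 0.11, adjusted p = 0.034).

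Cidec, a lipid droplet protein and PPARg target, fell from 7.63, 6.94 and 6.75 to 5.86, 4.99 and 5.71, by 1.59 (SE 0.31, adjusted p = 0.040). This call was lost without any 1 of the 6 compared arrays, with adjusted p up to 0.14, and with the RNA integrity term. It was the only call among 14 PPARg targets of fatty acid uptake and fat storage, beside 0.330% of all genes called lower. The median of that list was -0.05 in the HFGC group, beside 0.06 in the HFCC, 0.12 in the HFDC and 0.42 in the HF group, each against the same ND arrays. Pparg itself had a difference of 0.51 ± 0.15 that was not called (adjusted p = 0.13). Cd36, a fatty acid transporter, had levels of 8.72, 9.35 and 8.41 in the ND livers and 9.35, 9.14 and 9.30 in the HFGC livers, with a difference of 0.44 ± 0.22 (adjusted p = 0.38). The groups overlapped for Cd36.

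In the direct test of HFGC against HF, 4 of the 14 PPARg targets were called lower and none higher, against 2.31% of all genes called lower. In all, 565 genes (3.11%) were called in that test. The 4 were Plin4, Cd36, Mogat1 and Plin5, of which Plin4 and Mogat1 were chosen after their values were seen. Plin4, a coat protein of lipid droplets, stood at 7.38, 6.68 and 7.02 in the ND livers, 7.44, 7.04 and 7.61 in the HFGC livers and 8.57, 9.07 and 8.96 in the HF livers. HFGC minus HF was -1.5 ± 0.17 (adjusted p = 0.0021), while HFGC minus ND was 0.34 ± 0.16 and not called (adjusted p = 0.34). For Cd36, with 9.99, 10.23 and 10.34 in the HF livers, HFGC minus HF was -0.93 ± 0.21 (adjusted p = 0.034). Mogat1, which makes diacylglycerol, and Plin5, another droplet protein, differed by -0.68 ± 0.16 and -0.60 ± 0.15 (adjusted p = 0.039 and 0.047). Without HF replicate 2 or HF replicate 3 the call held for Plin4 but not for Cd36, Mogat1 or Plin5. The last 3 were also lost without any 1 of the HFGC arrays, and Plin5 without HF replicate 1. The HF arrays had 3′ minus 5′ values of 1.079, 1.405 and 1.169, all above the HFGC arrays. With that value as a term in the model none of the 4 was called, with adjusted p from 0.51 to 0.56. The differences were then -1.41 for Plin4, -0.92 for Cd36, -0.84 for Mogat1 and -0.65 for Plin5.

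**Figure D4:**
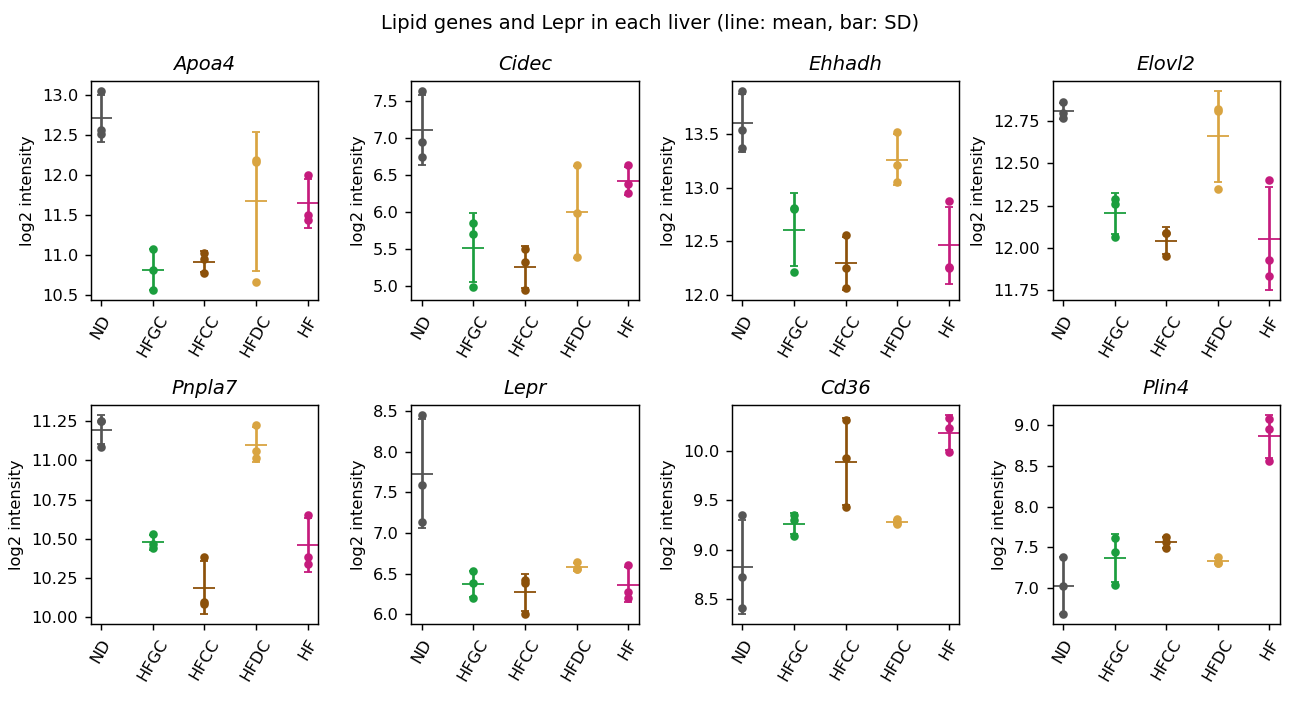
Log2 intensity of 7 lipid genes and Lepr in each of the 15 livers, by group, with single livers as points, means as horizontal marks and SD as bars. Apoa4, Cidec, Ehhadh, Elovl2, Pnpla7 and Lepr were called lower in HFGC than in ND, whereas Cd36 and Plin4 were not called and had their highest mean in HF.

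Other genes that fell include receptors and surface proteins. Lepr, the leptin receptor, fell from 8.46, 7.59 and 7.14 to 6.53, 6.20 and 6.39, by 1.36 (SE 0.24, adjusted p = 0.029), and its 4 probe sets had differences from -3.70 to -0.24. Cd9, a tetraspanin, fell from 8.99, 8.30 and 8.50 to 7.59, 7.37 and 7.18, by 1.22 (SE 0.16, adjusted p = 0.0047). Cdh1, E-cadherin of epithelial junctions, fell by 0.85 (SE 0.18, adjusted p = 0.046), and Reck, a membrane inhibitor of matrix proteases, by 0.97 (SE 0.17, adjusted p = 0.026). Irf2, an interferon regulatory factor, fell by 0.80 (SE 0.13, adjusted p = 0.017) and Cox7a1, a subunit of cytochrome c oxidase, by 0.82 (SE 0.14, adjusted p = 0.025). The HFGC levels of Cox7a1, at 5.12, 5.06 and 5.24, lay below the median probe set. Tent5a fell by 1.18 (SE 0.20, adjusted p = 0.021). The other 4 of the 15 largest falls, Rhpn2, Gprin3, Ccdc141 and Cdkl4, had differences of -0.99, -0.92, -0.88 and -0.69 (adjusted p = 0.035, 0.046, 0.023 and 0.0027). For Ccdc141 only 4 of 6 probe sets shared the direction, and for Cdkl4 the other probe set gave 0.03. All Cdkl4 levels in both groups lay below the median probe set of the arrays.

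Several lipid pathways had no calls, and their counts at an unadjusted p under 0.05 are to be read beside the 15.3% of all genes that reached it. None of 14 genes of fatty acid synthesis was called at an adjusted p under 0.05 in limma's test, 5 had an unadjusted p under 0.05, and the median was -0.18. Scd1, the desaturase that makes oleic acid, had levels of 14.03, 14.21 and 13.81 in the ND livers and 12.68, 12.73 and 13.75 in the HFGC livers. Its difference of -0.97 ± 0.26 was not called (adjusted p = 0.099), and the HFGC livers fell into 2 low ones and 1 near the ND levels. None of 15 genes of triglyceride synthesis and lipolysis was called, 4 had an unadjusted p under 0.05, and the median was -0.14. Its widest member was Lpin1, a phosphatidate phosphatase, at -1.16 ± 0.32 (adjusted p = 0.10). None of 17 genes of mitochondrial beta-oxidation was called, with 5 at an unadjusted p under 0.05 and a median of -0.08.

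Genes of nitrogen and energy metabolism had few calls. Of 18 genes whose mRNA or protein was assayed in mice on these diets, 1 was called higher and 1 lower, and the median was 0.01. The study compared the proteins of the coffee groups with those of the HF group, not the ND group. The background for these counts is 0.759% of the 18193 genes with a higher call and 0.330% with a lower one. Arg2 was among the genes for which the study lists PCR primers for mRNA. Agxt2, a mitochondrial aminotransferase, rose from 9.62, 10.00 and 9.93 to 10.36, 10.39 and 10.70, by 0.64 ± 0.13 (adjusted p = 0.044). The difference of Agxt2 from ND was 0.77 in the HF group, and HFGC minus HF was -0.13 in limma's test (adjusted p = 0.61). Arg2, the mitochondrial arginase, fell from 4.65, 4.53 and 4.52 to 4.04, 3.90 and 4.19, by 0.52 (SE 0.09, adjusted p = 0.026). All 6 Arg2 levels lay below the median probe set of the arrays, and a second probe set gave -0.09. Arg2 was the only call among 9 urea cycle genes and carriers, and Agxt2 the only call among 30 genes of amino acid catabolism. None of 17 TCA cycle genes and none of 34 complex I genes was called, with 6 and 10 at an unadjusted p under 0.05 (15.3% of all genes) and medians of -0.04 and -0.02. Among 12 genes of glucose metabolism none was called and 3 had an unadjusted p under 0.05. Pck1, the gatekeeper of gluconeogenesis, was 2.82-fold higher on average without being called (adjusted p = 0.10), and its ND replicate 1 at 8.48 lay below the other ND livers at 10.37 and 10.07.

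**Figure D5:**
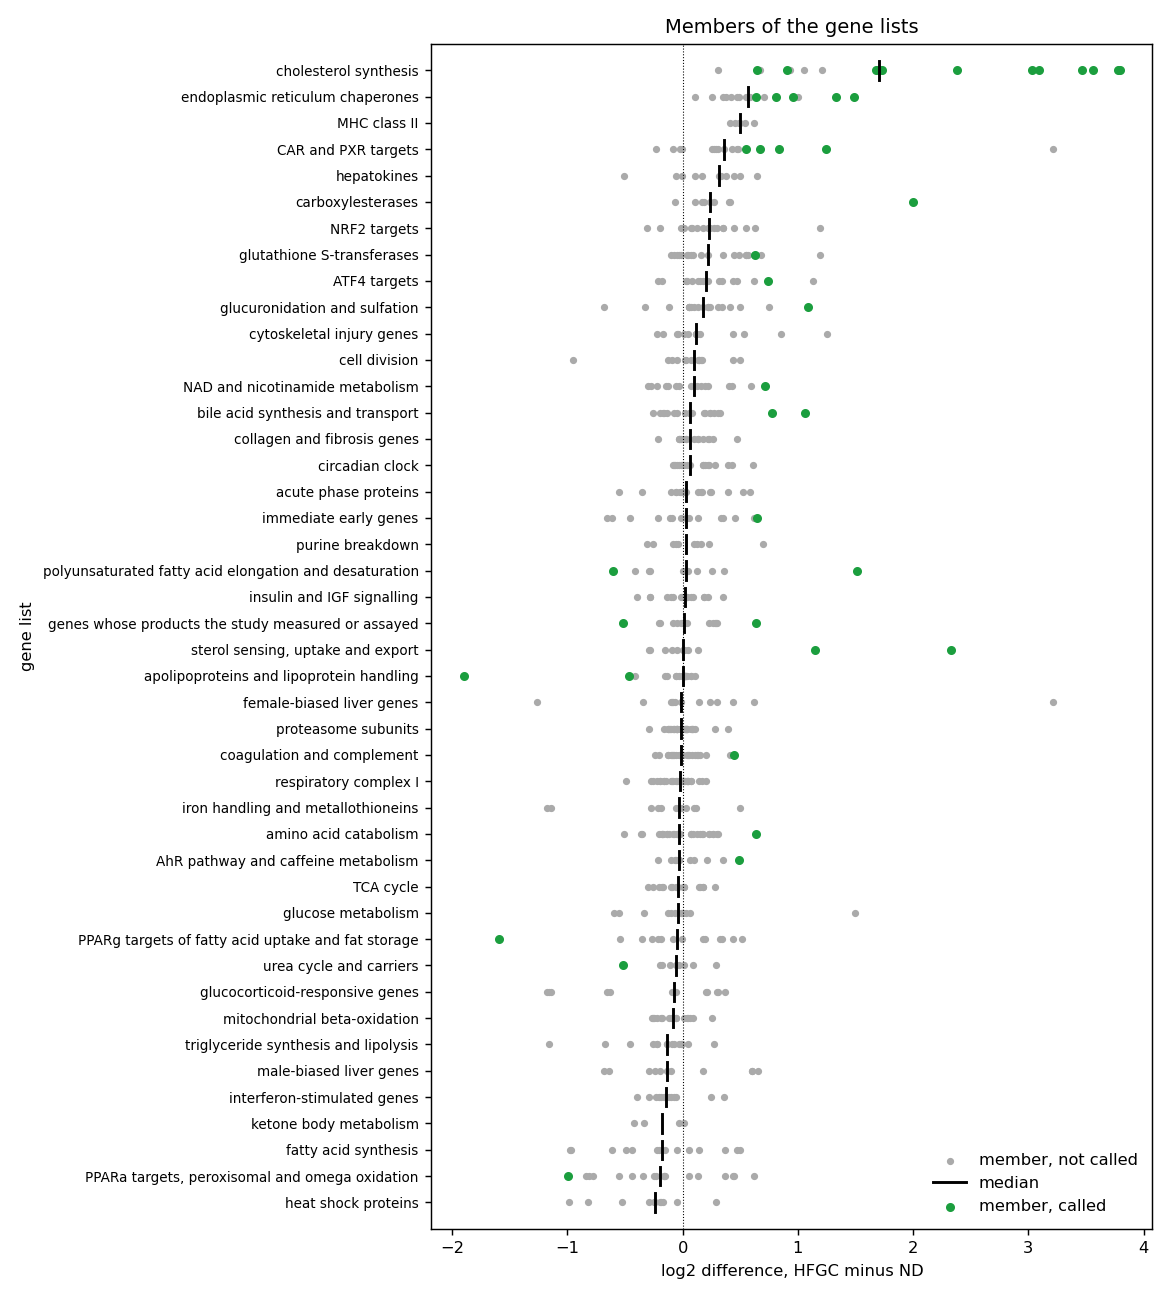
Log2 difference HFGC minus ND of each measured member of the 44 pathway lists, ordered by list median (black marks), with members called at an adjusted p under 0.05 in green. Cholesterol synthesis (median 1.70) and ER chaperones (median 0.57) stand highest, and 24 lists have no called member.

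Inflammation and secreted proteins added few calls. Beside the unadjusted counts of these lists, 15.3% of all genes had an unadjusted p under 0.05. Mbl2, a lectin of the complement system, rose by 0.44 ± 0.09 (adjusted p = 0.038). It was the only call among 25 coagulation and complement genes, beside 0.759% of all genes called higher. Lect2, a secreted hepatokine, had a difference of 0.64 ± 0.14 that was not called (adjusted p = 0.054). None of 6 MHC class II genes was called, although all 6 lay above 0 with a median of 0.49 and 3 had an unadjusted p under 0.05. Lgals1, galectin-1, had a difference of 1.25 ± 0.30 from ND (adjusted p = 0.068). Its levels were 7.67, 8.37 and 7.05 in the ND livers, 9.10, 8.71 and 9.02 in the HFGC livers and 9.99, 10.95 and 10.87 in the HF livers. HFGC minus HF was -1.66 ± 0.31 and was called (adjusted p = 0.023). Aox3 was also the only call among 16 genes of NAD and nicotinamide metabolism, whose median was 0.10. None of 18 NRF2 targets, which defend against oxidants, was called, with 7 at an unadjusted p under 0.05 and a median of 0.23. None of 11 hepatokines was called, with 4 at an unadjusted p under 0.05 and a median of 0.32. Lists of collagen and fibrosis, cytoskeletal injury, cell division, purine breakdown, the circadian clock, acute phase proteins, insulin and IGF signalling, proteasome subunits, iron handling, glucocorticoid response, ketone bodies, interferon response and sex-biased liver genes had no called member, with medians from -0.18 for 4 ketone body genes to 0.11 for 15 cytoskeletal injury genes. Between 0 and 5 members of each of these lists had an unadjusted p under 0.05. Over all 44 lists, which were chosen with earlier results of these data known, 35 of 650 genes were called higher and 6 lower. Over all genes the shares were 0.759% and 0.330%, and 157 called genes belonged to no list.

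None of 55 genes in 10 marker lists was called in HFGC against ND by limma's test, and 8 had an unadjusted p under 0.05, beside 15.3% of all genes. The 7 hepatocyte markers had mean levels of 13.84 to 14.02 in the ND livers and 13.93 to 14.04 in the HFGC livers. The mean of 8 stellate cell and fibroblast markers was 7.64 to 7.78 in the ND livers and 7.81 to 8.03 in the HFGC livers, and that of 3 neutrophil markers 5.42 to 5.54 and 5.74 to 6.14, in both without overlap. The median difference was 0.15 for the stellate cell and 0.50 for the neutrophil list, with 3 of 8 and 2 of 3 genes at an unadjusted p under 0.05. For 9 Kupffer cell and macrophage markers the ranges of 7.93 to 8.46 and 8.16 to 8.57 overlapped. The other 6 marker lists, for sinusoidal endothelial cells, cholangiocytes, lymphocytes, adipocytes, erythroid cells and exocrine pancreas, had median differences between -0.05 and 0.08. The part of cell composition in the differences above was not tested.

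Between green and roasted caffeinated coffee no gene was called, with 482 genes (2.65%) at an unadjusted p under 0.05 in limma's test. Between green and decaffeinated coffee 1 gene was called higher (0.00550%) and 2 lower (0.0110%), and they were chosen for naming after their values were seen. Tmem41b, an ER lipid scramblase, stood at 8.23, 8.39 and 8.24 in the ND livers, 9.26, 9.46 and 9.26 in the HFGC livers and 8.79, 8.47 and 8.64 in the HFDC livers. HFGC minus HFDC was 0.69 ± 0.09 (adjusted p = 0.034), and HFGC minus ND was 1.04 ± 0.09 (adjusted p = 0.00057). Osbpl3, an oxysterol-binding protein family member, was between 4.84 and 5.12 in the ND and between 4.96 and 5.01 in the HFGC livers, against 5.67, 5.57 and 5.72 in the HFDC and 6.06, 6.72 and 6.55 in the HF livers. HFGC minus HFDC was -0.66 ± 0.07 (adjusted p = 0.019), and HFGC minus ND was 0.01 ± 0.07 (adjusted p = 0.97). Ugt2b37, a glucuronosyltransferase, differed by -0.74 ± 0.10 between HFGC and HFDC (adjusted p = 0.034) and by 0.05 ± 0.10 between HFGC and ND (adjusted p = 0.85). These 3 calls against HFDC were lost without HFDC replicate 3, HFGC replicate 1 or HFGC replicate 2, and those of Tmem41b and Ugt2b37 also without HFDC replicate 2 or HFGC replicate 3. Pnpla7, which was low in the HFGC livers, stood at 11.23, 11.02 and 11.06 in the HFDC livers, and HFGC minus HFDC was -0.62 (adjusted p = 0.054).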

How the data were processed

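Total RNA of whole liver, 1 array per mouse, was labelled with biotin and hybridised to Affymetrix whole-genome mouse arrays. The deposited values are linear intensities that the authors obtained by RMA, which corrects background, normalizes between arrays and summarises probes. The software version is not given in the sources used here. Log2 was taken of these values, with no further normalization. Of 45101 probe sets, 34945 carried 1 gene symbol in the 2016 platform annotation, and 34741 of these matched a gene record of GRCm38.p6. Each of 18193 genes was represented by its brightest probe set over the 12 arrays of the model, with probe sets ending in _x_at only where there was no other. Tests used limma 3.58.1 in R 4.3.3 with 4 group means and 8 residual degrees of freedom, two-sided, Benjamini-Hochberg adjusted. HFGC against HF came from all 15 arrays. With 3 arrays against 3, an exact permutation test cannot go below p = 0.1, and the number of arrays limits the precision. Named genes were the 20 with the largest differences, and the 15 highest and 15 lowest, among called genes whose arrays did not overlap, together with called list members and up to 4 members of a list that were not called, and the genes of assayed products, without symbols of clones. The members and lists were chosen with earlier results of these data known. The procedure was tested on simulated data with independent noise in each array. Such data cannot address the dependence on single arrays or deviations shared by a replicate number. Alternatives were other choices of probe sets, a level filter, cyclic loess, an offset of 32, other sets of arrays, a replicate block, limma's trend and robust options, a 3′ minus 5′ term, other thresholds and each array left out. Some listed genes were not analysed here.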

Additional observations from a re-analysis of the deposited data

Results flagged for a closer look

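Differences from ND were also compared between the high-fat groups, and 13 genes named above or chosen after their values were seen differed between HFGC and HF in limma's test of the 2 groups themselves. Among genes higher in HFGC, the difference was 0.87 for Acsl3 (adjusted p = 0.042), 0.565 for Stard4 (adjusted p = 0.049), 1.23 for Ifrd1 (adjusted p = 0.016), 0.77 for Tmem41b (adjusted p = 0.016) and 0.758 for Pdia3 (adjusted p = 0.033). Among genes lower in HFGC it was -0.53 for Cox7a1 (adjusted p = 0.045), -0.89 for Gprin3 (adjusted p = 0.033), -0.925 for Cd36 (adjusted p = 0.034), -1.66 for Lgals1 (adjusted p = 0.023), -1.5 for Plin4 (adjusted p = 0.0021), -1.45 for Osbpl3 (adjusted p = 0.00013), -0.60 for Plin5 (adjusted p = 0.047) and -0.68 for Mogat1 (adjusted p = 0.039). The calls of Plin4 and Osbpl3 held without each of the 6 HFGC and HF arrays. The other 11 were lost without HF replicate 2 and without HF replicate 3. Of these, Acsl3, Stard4, Cox7a1, Cd36, Lgals1, Plin5 and Mogat1 were also lost without any 1 of the HFGC arrays, Gprin3 without HFGC replicate 2 or 3, Pdia3 without HFGC replicate 1 or 2, and Plin5 without HF replicate 1. With the 3′ minus 5′ term none of the 13 was called, with adjusted p from 0.16 to 0.65. The difference with that term was 0.59 for Ifrd1, -0.50 for Gprin3, 0.50 for Pdia3 and -1.17 for Osbpl3. It was 0.84 for Acsl3, 0.63 for Stard4, 0.70 for Tmem41b, -0.60 for Cox7a1, -0.92 for Cd36, -1.53 for Lgals1, -1.41 for Plin4, -0.65 for Plin5 and -0.84 for Mogat1.

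Between HFGC and HFDC the difference was 0.69 for Tmem41b (adjusted p = 0.034), -0.66 for Osbpl3 (adjusted p = 0.019) and -0.74 for Ugt2b37 (adjusted p = 0.034). With the 3′ minus 5′ term the adjusted p was 0.015, 0.025 and 0.054.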

How the results depend on the processing

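In HFGC against ND, 138 genes were called higher and 60 lower. The counts were 67 and 32 with an offset of 32, 47 and 15 with the compared groups alone, 360 and 200 at an adjusted p under 0.10, and 82 and 22 at a fold of at least 1.5. Testing all named probe sets singly gave 115 lower. Leaving out 1 array gave 19 to 155 higher, lowest without HFGC replicate 2, and 7 to 78 lower, lowest without HFGC replicate 1. In HFGC against HF, with 145 higher and 420 lower, the counts were 72 and 279 with probe sets averaged, 340 and 834 with probe sets singly, 264 and 722 for genes at or above the median level, 218 and 216 with cyclic loess, which moved the split between directions, 1 and 8 with the compared groups alone, 0 and 0 with the 3′ minus 5′ term, 556 and 1021 at an adjusted p under 0.10, and 48 and 56 at a fold of at least 1.5. Leaving out 1 array gave 0 to 761 higher and 2 to 1104 lower, lowest without HF replicate 2 or HF replicate 3 and highest without HF replicate 1. In HFGC against HFCC, with no calls, probe sets singly gave 1 lower. In HFGC against HFDC, with 1 higher and 2 lower, the counts were 0 and 1 with probe sets singly, 0 and 0 at or above the median level, 2 and 5 with cyclic loess, 0 and 1 with the offset, 3 and 4 with all 15 arrays, 0 and 0 with the compared groups alone, 4 and 5 with limma's trend and robust options, and 5 and 6 at an adjusted p under 0.10. Averaging probe sets gave 4 lower, and the 3′ minus 5′ term 2 higher. Leaving out 1 array gave 0 to 10 higher and 0 to 5 lower. The cause of these shifts was not tested. Osbpl3 in HFGC against ND, at 0.01 and not called, was -0.0636 without ND replicate 2 and 0.0762 without ND replicate 1. No named call of HFGC against ND reversed its direction in any alternative run.

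With the replicate number as a block, 112 genes were called higher and 60 lower in HFGC against ND, and 133 of these 172 were among the 198 called without it. In HFGC against HFDC the block left 0 higher. Deviations from the group means correlated at r = 0.078, 0.123 and 0.098 between ND and HFGC arrays of the same number and at -0.076 to -0.033 between arrays of different numbers, across genes, which are not independent replicates. Deviations cancel out within a group for each gene, so a positive value for the same number forces negative ones among the rest. The values for different numbers are therefore not separate evidence. Each array correlated best with its own number. This is a hint from the data, since the labels do not say that a number marks a shared batch. The precision is limited by 3 arrays in a group and by probe sets near background, where intensity understates differences. Examples are those of Arg2, Cdkl4, Osbpl3, Ugt2b37, Cyp2b9 and Ccdc25 in ND, and of Cox7a1 in HFGC.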
